A study of Mus musculus with 24 samples.

Results

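B16 melanoma tumours of cells labelled as Chek2 knockouts, in mice given anti-PD-1, were compared with B16 tumours of parental cells in mice given PBS. The comparison rests on 6 of the 24 libraries of the series, chosen by their labelled condition: 3 labelled CHEK2-knock out and anti-PD-1 (KO anti-PD-1) and 3 labelled parental CHEK2-WT and PBS (WT PBS). Both factors differ between these groups, so the difference is called the net effect of knockout and antibody together. The 3 KO anti-PD-1 libraries also differ from all others in summed FPKM and in a trend over transcript length. Their condition and how they were made therefore cannot be told apart. The other 6 B16 libraries, 3 of KO tumours under PBS and 3 of WT tumours under anti-PD-1, show each factor alone, and a further 12 libraries come from MC38 colon carcinoma tumours. B16 is a mouse melanoma cell line, and all groups are whole tumour tissue grown in mice, so that host cells in a KO tumour keep an intact Chek2. The labels give neither the mouse strain and age, nor the dose of antibody, nor the number of knockout clones. They also leave unsaid whether replicates are separate mice, so p-values here measure the spread between libraries, which may be technical.

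Chek2 encodes the kinase CHK2, which the kinase ATM activates at DNA double-strand breaks and which passes the signal on to p53 and to cell cycle arrest. PD-1 is an inhibitory receptor on activated T cells, and antibodies against it release T cells from the ligand PD-L1 on tumour and myeloid cells. Interferon-gamma from T cells and NK cells then induces antigen presentation genes in many cell types. B16 tumours are known for low MHC expression and poor T cell infiltration. In RNA of bulk tissue, fewer cells of a type and less RNA per cell cannot be told apart.

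Expression was measured by RNA sequencing as FPKM, fragments scaled to transcript length and library size, so levels are per length. A gene was tested where it reached 1 FPKM in at least 3 of the 6 libraries, which left 12825 of 55335 genes. Differences are KO anti-PD-1 minus WT PBS on the log2(FPKM + 1) scale, given ± standard error, and this scale understates the change of genes with low FPKM. A gene was called where the adjusted p from limma was under 0.05, and "rose" or "fell" is used of called genes alone.

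The 3 KO anti-PD-1 libraries stood apart from all others before any gene was considered. Their FPKM summed to 375193 to 398474, against 319980 to 330689 in WT PBS and 310868 to 344059 over the 21 libraries outside the group. Depth, estimated from the step between low values, was 19611000 to 23850600 fragments in KO anti-PD-1 and 15048700 to 16500600 in WT PBS. Pearson's r of log2 values over the tested genes with the 9 other B16 libraries was 0.869 to 0.914 for KO anti-PD-1 replicate 1, 0.927 to 0.946 for replicate 2 and 0.930 to 0.950 for replicate 3, while those 9 correlated among themselves at 0.952 to 0.984. Their values also followed transcript length. Among 10858 protein-coding genes, the log2 difference had a Spearman's rho of -0.63 with transcript length and 0.38 with GC content, and the corresponding values for KO PBS minus WT PBS were 0.07 and -0.09. Among the genes with the shortest transcripts, 66 to 1945 bases, the median difference was 0.35, with 997 of 2173 genes higher and 59 lower. Among those with the longest, 5221 to 27908 bases, it was -0.51, with 31 of 2172 higher and 1416 lower. Counts of gene lists are therefore also given without KO anti-PD-1 replicate 1, and after a fitted trend over length and GC content was subtracted from each library, called the adjusted fit. This fit left part of the length trend. Its log2 difference had a rho of -0.12 with transcript length, and the median among the shortest transcripts was still 0.13.

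**Figure D1:**
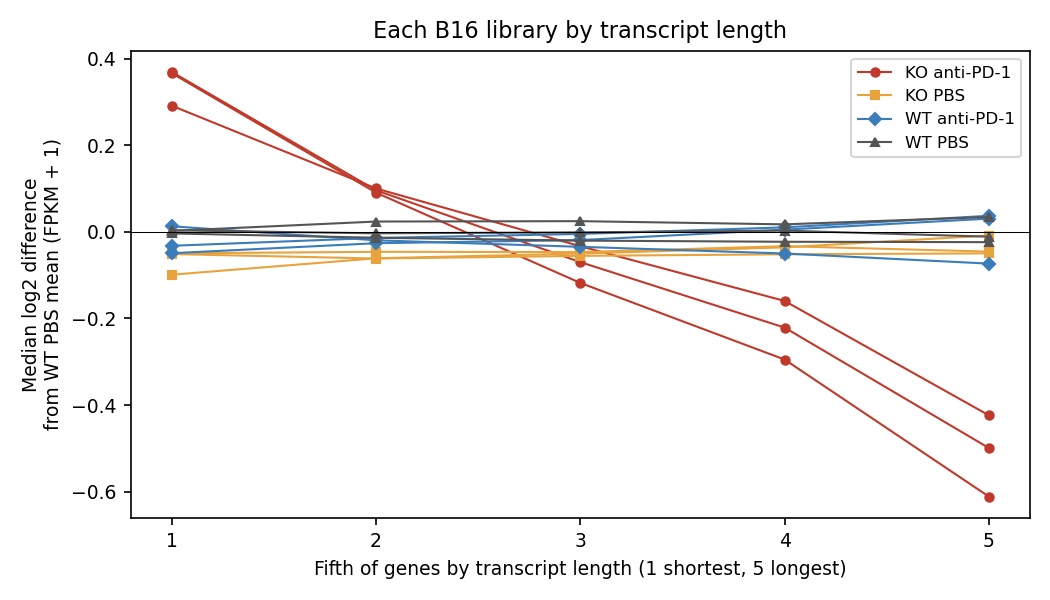
Median log2 difference of each B16 library from the WT PBS mean, for protein-coding genes in 5 bins of transcript length. The 3 KO anti-PD-1 libraries slope downward, with a net median of 0.35 in the shortest bin and -0.51 in the longest, and the 9 other libraries lie near 0 throughout.

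The targeted gene was low in the KO anti-PD-1 tumours by a small margin. Chek2 (ENSMUSG00000029521, mm10 chromosome 5, 110839979 to 110874145, plus strand) stood at 6.504, 6.002 and 6.749 FPKM in KO anti-PD-1 and at 7.696, 7.93 and 7.171 FPKM in WT PBS. All 3 KO values lay below all 3 WT values, as in 32.5% of all tested genes. The log2 difference of -0.21 ± 0.09 was not called (limma adjusted p = 0.0679), and it was called in the adjusted fit at -0.28 (limma adjusted p = 0.0238). Chek2 averaged 5.66 FPKM in KO PBS and 8.22 FPKM in WT anti-PD-1. KO PBS minus WT PBS was -0.37 and not called (limma adjusted p = 0.110). KO anti-PD-1 minus WT anti-PD-1 was -0.31 and called (limma adjusted p = 0.0152). Gene-level RNA need not fall when an edit shifts the reading frame, and no protein was measured. What share of the remaining Chek2 RNA came from host cells was not tested.

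The labelled tissue could be checked with markers of melanocytes. All 8 of them, among them the pigment enzymes Tyr, Tyrp1 and Dct, were above 1 FPKM in each of the 6 libraries. They summed to 5285, 5104 and 6554 FPKM in KO anti-PD-1 and to 5876, 5372 and 6134 FPKM in WT PBS, and these ranges overlap.

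Skeletal muscle transcripts differed sharply among the 3 KO anti-PD-1 libraries. Striated muscle fibres express a set of contractile proteins that tumour and immune cells largely lack. The 39 muscle genes summed to 3262 FPKM in KO anti-PD-1 replicate 1, to 317 FPKM in replicate 2 and to 37.4 FPKM in replicate 3, against 23.71, 24.87 and 23.99 FPKM in WT PBS. Replicate 1 stood far above the rest, replicate 2 between, and replicate 3 just above the other B16 groups, which ran from 19.03 to 28.08 FPKM. In KO anti-PD-1, 37, 24 and 8 of the 39 genes reached 1 FPKM, and in WT PBS 6, 7 and 2.

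Acta1, the actin of skeletal muscle thin filaments, stood at 728, 59.2 and 3.20 FPKM in KO anti-PD-1 replicates 1 to 3 and at 0.137, 0.289 and 0.107 FPKM in WT PBS. Mylpf, a light chain of fast-twitch myosin, stood at 343, 29.8 and 2.83 FPKM in KO anti-PD-1 and at 1.43, 1.74 and 0.542 FPKM in WT PBS. Tnnc2, the calcium-binding troponin of fast fibres, stood at 322, 27.6 and 0.915 FPKM in KO anti-PD-1 and was listed at 0 in all 3 WT PBS libraries. Tnnt3, the troponin T of fast fibres, stood at 313, 28.3 and 1.45 FPKM in KO anti-PD-1 and at 0, 0.412 and 0 FPKM in WT PBS. Each of these genes had the same order of KO libraries as the sum. Of the 39 genes only 9 reached the filter, most through the KO anti-PD-1 libraries, and 5 of those 9 were called higher. The count was 3 in the adjusted fit, 3 of the 6 still tested without KO anti-PD-1 replicate 1, and 2 when WT PBS replicate 3 was dropped. Of all tested genes 15.6% were higher as deposited, 11.2% in the adjusted fit and 10.3% without KO anti-PD-1 replicate 1. The call of Mylpf was lost without WT PBS replicate 3 (limma adjusted p = 0.0543), and Acta1 and Tnnt3 dropped under the filter without any one KO anti-PD-1 library.

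Haemoglobin transcripts were also high in the KO anti-PD-1 libraries, but not there alone. The haemoglobin and erythroid genes, 15 in all, summed to 15670 FPKM in KO anti-PD-1 replicate 1, to 2129 in replicate 2 and to 1108 in replicate 3, against 375, 275 and 272 FPKM in WT PBS. That sum was 3.93%, 0.543% and 0.295% of all FPKM in the KO anti-PD-1 libraries and 0.114%, 0.0860% and 0.0824% in WT PBS. Replicate 1 was again the highest and replicate 3 the lowest of the KO anti-PD-1 libraries. The KO PBS libraries held 3555, 3742 and 292 FPKM and the WT anti-PD-1 libraries 1157, 2651 and 409 FPKM, so 4 libraries of these groups lay above KO anti-PD-1 replicate 3.

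The adult beta-globin gene Hbb-bs stood at 5752, 742.3 and 357.6 FPKM in KO anti-PD-1 and at 125.2, 86.89 and 81.4 FPKM in WT PBS. The alpha-globin gene Hba-a1 stood at 3967, 527.8 and 267.8 FPKM in KO anti-PD-1 and at 59.53, 42.82 and 32.51 FPKM in WT PBS. Alpha-globin comes from near-identical copies, Hba-a1 and Hba-a2, so the split of reads between them is uncertain. Of 7 erythroid genes tested, 5 were called higher and 2 in the adjusted fit. Of all tested genes 15.6% were higher as deposited, 11.2% in the adjusted fit and 10.3% without KO anti-PD-1 replicate 1. Leaving out KO anti-PD-1 replicate 1 left 1 call, WT PBS replicate 1 left 3, WT PBS replicate 2 left 2 and WT PBS replicate 3 left 1. Alas2, which makes the first step of haem synthesis in red cells, followed the same order at 35.02, 5.266 and 2.967 FPKM in KO anti-PD-1 and 1.205, 0.4805 and 0.1462 FPKM in WT PBS. It was not called (limma adjusted p = 0.0507) and was named after its values were seen. The part that muscle and blood RNA play in the differences of other genes was not tested.

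**Figure D2:**
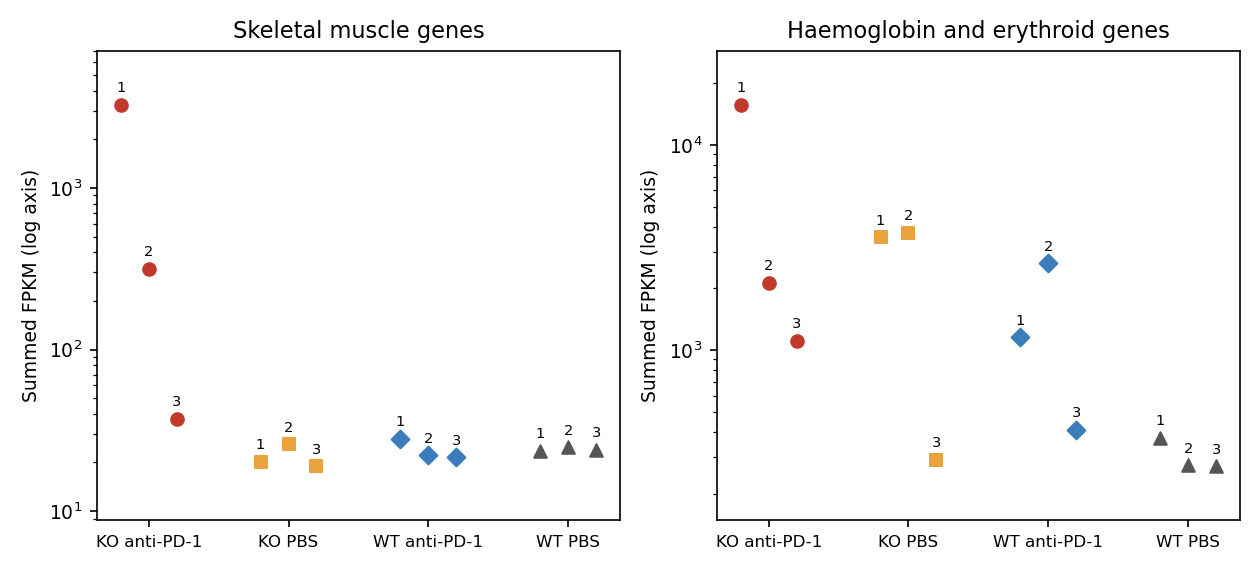
Summed FPKM of 39 skeletal muscle genes (left) and 15 haemoglobin and erythroid genes (right) in each B16 library, on log axes, with replicate numbers above the points. KO anti-PD-1 replicates 1, 2 and 3 hold 3262, 317 and 37.4 FPKM of muscle transcripts, against 23.7 to 24.9 FPKM in WT PBS, and haemoglobin is also high in KO PBS and WT anti-PD-1 libraries.

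Across all tested genes the net difference was broad. Limma called 5499 of 12825 genes (42.9%), of which 2004 were higher (15.6%) and 3495 lower (27.3%) in KO anti-PD-1. Of these, 310 were at least 2-fold higher and 454 at least 2-fold lower in FPKM + 1. In 53.8% of genes the groups did not overlap, 21.3% higher and 32.5% lower. The split of directions depended on the scaling: it was 749 higher and 4443 lower after rescaling to equal sums of protein-coding genes, which moves the median of all genes to -0.23 from -0.06, and 2638 higher and 2994 lower after median-ratio scaling. The adjusted fit called 3438 genes (26.8%), 1438 higher (11.2%) and 2000 lower (15.6%), and 934 of the higher and 1664 of the lower calls were shared with the deposited values. Among genes called as deposited, 45 of the higher ones were negative after adjustment and 398 of the lower ones were positive. Without KO anti-PD-1 replicate 1, 4062 genes were called (32.3%), 1294 higher (10.3%) and 2768 lower (22%), and with that library left out of the adjusted fit 2138 (17%), 882 higher (7.02%) and 1256 lower (10%).

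Genes of MHC class II antigen presentation rose together. MHC class II molecules present peptides of engulfed proteins to CD4 T cells; they are made by dendritic cells, macrophages and B cells, and by other cells under interferon-gamma. All 7 of 7 tested class II genes were called higher, with a median log2 difference of 2.53, where 15.6% of all tested genes were called higher and the median of all genes was -0.06. In the adjusted fit 1 of 7 was called (median 2.22), and without KO anti-PD-1 replicate 1 none was (median 1.87).

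The promoters of class II genes share elements bound by common factors, among them the Y box, an inverted CCAAT element bound by NF-Y. The promoters of 2 class II genes are shown because their transcripts moved together. They run from 250 bases before to 50 bases after the start site in RefSeq (GRCm38.p6), 5′ to 3′ on the gene's strand, with matches to TGATTGG or its reverse complement in capitals.
H2-Aa, chr17:34287774-34288073, minus strand: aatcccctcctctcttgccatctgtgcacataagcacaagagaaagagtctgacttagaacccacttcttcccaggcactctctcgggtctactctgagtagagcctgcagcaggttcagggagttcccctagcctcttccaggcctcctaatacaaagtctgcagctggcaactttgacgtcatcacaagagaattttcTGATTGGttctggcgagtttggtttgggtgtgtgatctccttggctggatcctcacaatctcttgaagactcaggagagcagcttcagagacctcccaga
H2-Eb1, chr17:34305617-34305916, plus strand: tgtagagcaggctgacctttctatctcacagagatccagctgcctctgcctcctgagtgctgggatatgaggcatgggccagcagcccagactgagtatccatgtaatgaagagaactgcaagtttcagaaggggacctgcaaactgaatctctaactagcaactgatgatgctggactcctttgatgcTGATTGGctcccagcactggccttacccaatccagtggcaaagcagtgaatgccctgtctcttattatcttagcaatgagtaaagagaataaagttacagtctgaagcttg
Each holds 1 match on its own strand. The letters occurred in 6 of 9 promoters of 8 class II genes on the list, in 7.82% of all 32851 promoters and in 10.6% of those of tested genes. The shorter core ATTGG, which lies within the longer motif, occurred in 7 of the 9 and in 37.4% of all promoters. A match describes the sequence and is not shown to be a bound site.

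The chains of the class II molecule followed a common order of libraries. H2-Aa, the alpha chain of I-A, stood at 118, 16.9 and 44.1 FPKM in KO anti-PD-1 and at 3.40, 12.7 and 6.57 FPKM in WT PBS, a difference of 2.57 ± 0.91 (limma adjusted p = 0.0402). H2-Ab1, its beta chain, stood at 90.4, 19.8 and 36.9 FPKM in KO anti-PD-1 and at 2.79, 10.5 and 7.20 FPKM in WT PBS, a difference of 2.55 ± 0.81 (limma adjusted p = 0.0269). H2-Eb1, the beta chain of I-E, stood at 95.59, 14.95 and 36.51 FPKM in KO anti-PD-1 and at 3.1, 8.397 and 6.802 FPKM in WT PBS (2.53 ± 0.84, limma adjusted p = 0.0324). In each of them KO anti-PD-1 replicate 1 was highest, replicate 3 lay between and replicate 2 was lowest, above the highest WT PBS library. Cd74, the invariant chain that guides class II molecules to the endosome, stood at 352, 40.8 and 127 FPKM in KO anti-PD-1 and at 10.1, 24.2 and 18.2 FPKM in WT PBS (2.82 ± 0.89, limma adjusted p = 0.0255).

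The peptide loading factors H2-DMa and H2-DMb1 also rose. H2-DMa stood at 12.37, 2.666 and 6.002 FPKM in KO anti-PD-1 and at 0.5721, 1.475 and 0.9146 FPKM in WT PBS, and it alone of the class II list was called in the adjusted fit (limma adjusted p = 0.037). In WT anti-PD-1 tumours class II levels were uneven: Cd74 stood at 7.985, 109.2 and 27.53 FPKM there, and the highest of these lay within the range of KO anti-PD-1. Ciita, the master coactivator of class II genes, was under the filter at 3.60, 0.209 and 1.27 FPKM in KO anti-PD-1 and 0.0396, 0.281 and 0.171 FPKM in WT PBS, and was named after its values were seen. The class II count depended on single libraries beyond replicate 1: leaving out KO anti-PD-1 replicate 3 gave 3, WT PBS replicate 1 gave 1 and WT PBS replicate 3 gave 2.

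Many genes of MHC class I presentation, which shows peptides from inside the cell to CD8 T cells, were also higher. Of 23 tested, 15 were called higher and 1 lower (10 higher and 0 lower in the adjusted fit), with a median difference of 1.56. Of all tested genes 15.6% were higher as deposited and 11.2% in the adjusted fit. The list summed to 2481 FPKM in KO anti-PD-1 replicate 2, the lowest of that group, and to 3200 FPKM in WT anti-PD-1 replicate 2. Psme2, a subunit of the interferon-induced proteasome activator, stood at 119, 38.1 and 72.0 FPKM in KO anti-PD-1 and at 19.5, 26.8 and 18.4 FPKM in WT PBS (1.65 ± 0.42, limma adjusted p = 0.00947). H2-M3, a nonclassical class I heavy chain that presents N-formylated peptides, stood at 21.2, 7.61 and 14.7 FPKM in KO anti-PD-1 and at 4.65, 4.87 and 3.91 FPKM in WT PBS (1.40 ± 0.33, limma adjusted p = 0.00598). H2-T22, another nonclassical chain, rose by 1.36 ± 0.36 (limma adjusted p = 0.0121). The 3 genes had no overlap between groups and stayed called without any 1 of the 6 libraries. Canx, the chaperone calnexin, was the gene that fell, at 145, 197 and 189 FPKM in KO anti-PD-1 and 261, 245 and 247 FPKM in WT PBS (limma adjusted p = 0.00537), but not in the adjusted fit (limma adjusted p = 0.198). Without KO anti-PD-1 replicate 1, 3 class I genes were called higher, and 0 in the adjusted fit without it, while leaving out KO anti-PD-1 replicate 3 gave 9, WT PBS replicate 1 gave 6 and WT PBS replicate 3 gave 7.

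Fewer interferon response genes passed the test although their median was high. Of 27 interferon-gamma response genes, 3 were called higher and 1 lower (median 1.37), and in the type I interferon list 8 of 37 were higher and 1 lower (median 0.77). In the adjusted fit 1 of 27 and 2 of 37 were higher. Of all tested genes 15.6% were higher as deposited and 11.2% in the adjusted fit, and the interferon-gamma list lay below both shares. That list summed to 1704, 262 and 950 FPKM in KO anti-PD-1 and to 244, 349 and 233 FPKM in WT PBS. Replicate 2 of KO anti-PD-1 thus lay within the WT PBS range. The sums in WT anti-PD-1 were 162, 1018 and 322 FPKM. Psmb9, an immunoproteasome subunit, stood at 34.1, 4.52 and 13.9 FPKM in KO anti-PD-1 and at 1.76, 2.88 and 1.53 FPKM in WT PBS (2.25 ± 0.67, limma adjusted p = 0.0206). Ifi27l2a, an interferon-induced mitochondrial protein, stood at 181, 67.3 and 38.4 FPKM in KO anti-PD-1 and at 15.4, 21.5 and 9.10 FPKM in WT PBS (2.35 ± 0.68, limma adjusted p = 0.017). Jak2, a kinase of the interferon-gamma receptor, was the gene of the first list that fell, at 8.27, 6.61 and 6.76 FPKM in KO anti-PD-1 against 10.8, 12.5 and 14.0 FPKM in WT PBS (limma adjusted p = 0.00243), but it was not called in the adjusted fit (limma adjusted p = 0.122). Without KO anti-PD-1 replicate 1 the higher calls were 0 and 1, and without replicate 2, they were 16 and 18. Without KO anti-PD-1 replicate 3 they were 2 and 2, without WT PBS replicate 1 they were 0 and 3, leaving out WT PBS replicate 2 gave 1 and 4, and leaving out WT PBS replicate 3 gave 0 and 1.

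**Figure D3:**
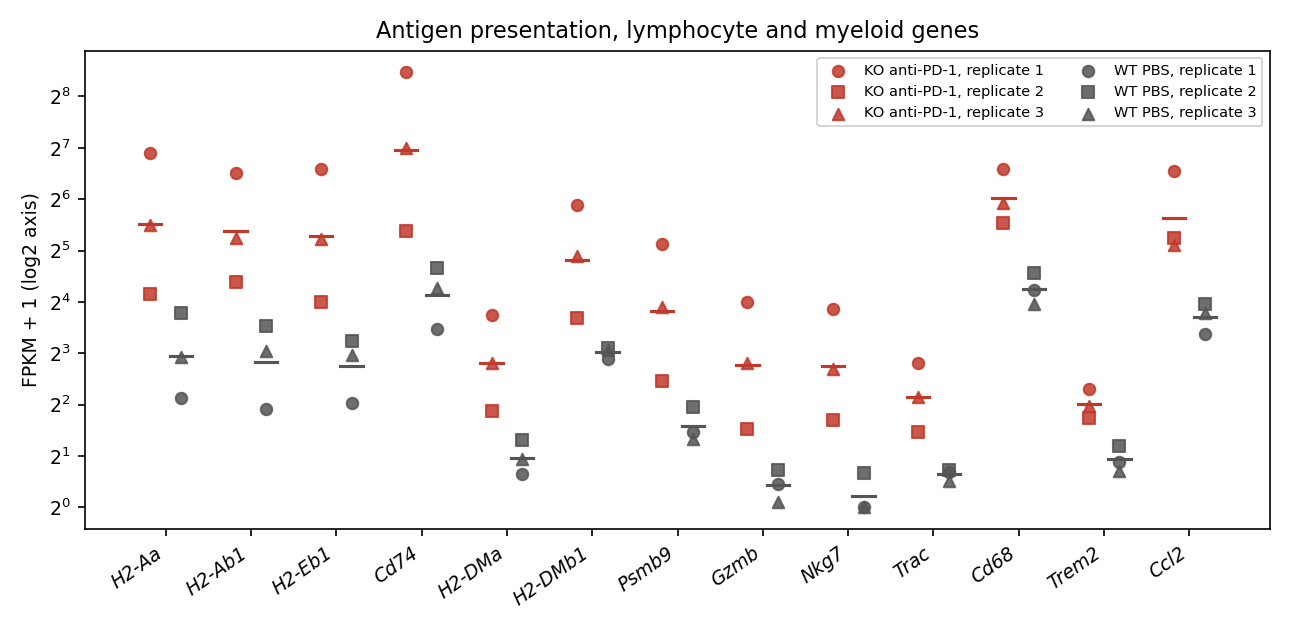
FPKM + 1 on a log2 axis for 13 immune genes in the 3 KO anti-PD-1 and 3 WT PBS libraries. Bars are means of the log2 values, and KO anti-PD-1 replicate 1 is the highest point for every gene shown.

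Lymphocyte transcripts were low in both groups and higher in KO anti-PD-1. All 6 tested CD8 T cell and cytotoxic genes were called higher, with a median difference of 1.41, and 6 of 7 tested pan T cell genes, with a median of 1.42. In the adjusted fit these counts were 4 and 5. The shares of all tested genes called higher were 15.6% as deposited and 11.2% in the adjusted fit. Since 10 of the 16 cytotoxic and 14 of the 21 pan T cell genes were under the filter, genes of these lists that passed did so largely through the KO anti-PD-1 libraries and had to differ. Gzmb, the granule protease granzyme B, stood at 14.98, 1.888 and 6.013 FPKM in KO anti-PD-1 and at 0.3684, 0.665 and 0.06908 FPKM in WT PBS (2.35 ± 0.58, limma adjusted p = 0.00798). Nkg7, a granule membrane protein of NK and T cells, stood at 13.5, 2.24 and 5.47 FPKM in KO anti-PD-1 and at 0, 0.587 and 0 FPKM in WT PBS (2.53 ± 0.49, limma adjusted p = 0.00209). Trac, the T cell receptor alpha constant gene, stood at 6.02, 1.76 and 3.44 FPKM in KO anti-PD-1 and at 0.619, 0.654 and 0.422 FPKM in WT PBS (1.4999 ± 0.31, limma adjusted p = 0.00321). In these 3 genes the groups did not overlap, but each was under the filter once a KO anti-PD-1 library was left out. The cytotoxic and pan T cell counts were then 0 and 2 without replicate 1, 2 and 3 without replicate 2, and 1 and 2 without replicate 3, and leaving out WT PBS replicate 1 gave 3 and 5. The cytotoxic list summed to 19.53 FPKM in KO anti-PD-1 replicate 2, the lowest of that group, and to 24.98 in WT anti-PD-1 replicate 2. The pan T cell sums of these libraries were 21.73 and 21.24 FPKM. In WT anti-PD-1 replicate 2 Gzmb stood at 3.169 FPKM, above KO anti-PD-1 replicate 2. Nkg7 and Trac, at 1.676 and 1.341 FPKM there, lay below KO anti-PD-1 replicate 2.

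Among the panel of T cell effector and checkpoint genes, only Gzmb, Cd274 and Cxcl9 passed the filter and were tested, and Gzmb alone was called. Gzmb passed the filter through the KO anti-PD-1 libraries alone, so it had to differ and its call adds no support. Cd8a, the CD8 alpha chain, stood at 2.68, 0.613 and 2.21 FPKM in KO anti-PD-1 and at 0.0888, 0.411 and 0.143 FPKM in WT PBS, under the filter but without overlap. Ifng, Prf1, Pdcd1 and Foxp3 were also under the filter. Ifng stood at 1.40, 0.0531 and 0.745 FPKM in KO anti-PD-1 and was listed at 0 in all 3 WT PBS libraries. Foxp3, the regulator of regulatory T cells, stood at 0.104, 0.107 and 0.133 FPKM in KO anti-PD-1 and at 0.0885, 0.0527 and 0.101 FPKM in WT PBS. Cd274, which encodes PD-L1, stood at 32.19, 9.396 and 26.75 FPKM in KO anti-PD-1 and at 16.9, 15.96 and 13.45 FPKM in WT PBS, groups that overlap (0.38 ± 0.38, limma adjusted p = 0.44). Cxcl9, an interferon-gamma-induced chemokine that draws T cells, stood at 47.2, 2.63 and 27.1 FPKM in KO anti-PD-1 and at 2.10, 7.52 and 1.88 FPKM in WT PBS (2.01 ± 1.13, limma adjusted p = 0.17). KO anti-PD-1 replicate 2 was the low library in both, and without it both were called (limma adjusted p = 0.0173 for Cd274 and 0.0393 for Cxcl9).

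Macrophage genes rose in part. Of 23 macrophage and monocyte genes, 11 were called higher and 0 lower (median 1.42), and 9 were higher in the adjusted fit. Without KO anti-PD-1 replicate 1, 4 of the 20 still tested were higher. Over all tested genes the shares higher were 15.6%, 11.2% and 10.3%, in the same order. Among the genes called, Ly6c2 stood at 10.4, 1.26 and 3.61 FPKM in KO anti-PD-1 and 0.126, 0.587 and 0.286 FPKM in WT PBS. It passed the filter through the KO anti-PD-1 libraries alone, so it had to differ. The list summed to 749 FPKM in KO anti-PD-1 replicate 2, the lowest of that group, and to 743 FPKM in WT anti-PD-1 replicate 2. Cd68, a lysosomal protein of macrophages, stood at 95.2, 45.2 and 59.9 FPKM in KO anti-PD-1 and at 17.7, 22.5 and 14.6 FPKM in WT PBS (1.77 ± 0.29, limma adjusted p = 0.000856). Trem2, a lipid-sensing receptor of tissue macrophages, stood at 3.94, 2.34 and 2.91 FPKM in KO anti-PD-1 and at 0.849, 1.30 and 0.637 FPKM in WT PBS (1.07 ± 0.21, limma adjusted p = 0.00222). Apoe, a lipid carrier made by macrophages and other cells, stood at 248.6, 165.3 and 176.5 FPKM in KO anti-PD-1 and at 118.9, 88.82 and 96.61 FPKM in WT PBS (0.94 ± 0.15, limma adjusted p = 0.000872). All 3 were called without any 1 of the 6 libraries and in the adjusted fit. The count of macrophage genes was 5 without WT PBS replicate 1 and 5 without WT PBS replicate 3.

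Of 10 inflammatory cytokine genes 5 were higher and 0 lower, 3 in the adjusted fit, and 3 each without KO anti-PD-1 replicate 1, WT PBS replicate 1 or WT PBS replicate 3. Over all tested genes 15.6% were higher as deposited and 11.2% in the adjusted fit. Ccl2, which draws monocytes through the receptor CCR2, stood at 92.1, 37.1 and 33.5 FPKM in KO anti-PD-1 and at 9.43, 14.7 and 12.9 FPKM in WT PBS (1.92 ± 0.46, limma adjusted p = 0.00672). The related Ccl7 and Ccl12 rose by 1.88 ± 0.49 (limma adjusted p = 0.0102) and 1.38 ± 0.30 (limma adjusted p = 0.00389), and the calls of these 3 chemokines held without any 1 of the 6 libraries. Of 15 complement genes 10 rose and 0 fell, 5 in the adjusted fit and 2 without replicate 1. C1s1, the protease C1s of the classical pathway, stood at 18.2, 12.4 and 11.4 FPKM in KO anti-PD-1 and at 5.42, 5.86 and 2.70 FPKM in WT PBS (1.43 ± 0.34, limma adjusted p = 0.00682). Leaving out WT PBS replicate 1 left 2 complement calls, and WT PBS replicate 3 left 3. The complement list summed to 352 FPKM in KO anti-PD-1 replicate 2, the lowest of that group, and to 396 FPKM in WT anti-PD-1 replicate 2.

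Defining markers of other cell types were summed in each library, with no test on the sums. The 5 T cell markers summed to 16.4, 5.59 and 8.22 FPKM in KO anti-PD-1 and 1.07, 2.02 and 0.878 FPKM in WT PBS, and the 5 macrophage markers to 336, 145 and 183 FPKM in KO anti-PD-1 and 56.4, 85.5 and 59.3 FPKM in WT PBS. The 3 fibroblast markers summed to 145, 61.7 and 18.3 FPKM in KO anti-PD-1 and 29.4, 50.4 and 11.2 FPKM in WT PBS, and the 3 adipocyte markers to 10.3, 8.06 and 0.817 FPKM in KO anti-PD-1 and 0.453, 1.43 and 4.33 FPKM in WT PBS. The T cell and macrophage sums did not overlap between groups, and the fibroblast and adipocyte sums did. The adipocyte sum follows the order of the muscle transcripts within KO anti-PD-1. The 3 B cell markers stayed under 1 FPKM summed in all 6 libraries, and the 3 keratinocyte markers were at or near 0. Of 4 tested genes of the wider B and plasma cell list, Igkc and Ighm rose and Xbp1 fell, where 15.6% of all genes rose. Igkc, an immunoglobulin light chain gene, stood at 36.5, 6.95 and 12.9 FPKM in KO anti-PD-1 and 0.824, 2.89 and 2.95 FPKM in WT PBS. In the adjusted fit, and likewise without KO anti-PD-1 replicate 1, 0 genes of that list were higher and 1 lower. KO anti-PD-1 replicate 2, second in muscle and haemoglobin transcripts, was the lowest of the KO anti-PD-1 libraries in class II, T cell and macrophage markers.

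Genes of mitosis were lower in KO anti-PD-1, as deposited and in the adjusted fit. Of 33 genes of mitosis and the G2/M phase, 18 were called lower and 1 higher, with a median of -0.33, where 27.3% of all tested genes were lower. The adjusted fit called 20 lower and 2 higher (median -0.34), against 15.6% of all genes lower, and without KO anti-PD-1 replicate 1 it was 15 lower and 1 higher. The higher gene, Birc5, which encodes survivin, was named after its values were seen, at 31.3, 38.0 and 30.7 FPKM in KO anti-PD-1 and 25.7, 28.3 and 27.8 FPKM in WT PBS, and no gene of the list was higher without KO anti-PD-1 replicate 2 or without any 1 WT PBS library. The median transcript of this list was 3645 bases long, against 3002 bases over all tested genes.

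The 4 mitotic genes with the smallest adjusted p are shown by their promoters. Many genes expressed at G2 and mitosis carry a cell cycle genes homology region near the start site, an element bound by the DREAM and MuvB complexes. Matches to the letters TTTGAA or the reverse complement are in capitals, in RefSeq (GRCm38.p6) promoters drawn as above.
Top2a, chr11:99024140-99024439, minus strand: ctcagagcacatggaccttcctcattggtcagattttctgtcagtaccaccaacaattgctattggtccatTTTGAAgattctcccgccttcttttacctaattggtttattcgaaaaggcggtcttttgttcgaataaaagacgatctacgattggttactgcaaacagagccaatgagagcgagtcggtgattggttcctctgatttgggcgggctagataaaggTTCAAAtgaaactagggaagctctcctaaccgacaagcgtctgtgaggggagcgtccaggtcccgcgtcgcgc
Cenpf, chr1:189688037-189688336, minus strand: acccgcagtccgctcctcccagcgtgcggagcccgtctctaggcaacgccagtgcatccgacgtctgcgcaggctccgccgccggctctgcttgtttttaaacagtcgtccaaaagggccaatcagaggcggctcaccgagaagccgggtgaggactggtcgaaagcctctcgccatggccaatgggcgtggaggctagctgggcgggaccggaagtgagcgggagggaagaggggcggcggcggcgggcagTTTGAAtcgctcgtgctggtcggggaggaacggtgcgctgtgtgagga
Mki67, chr7:135716330-135716629, minus strand: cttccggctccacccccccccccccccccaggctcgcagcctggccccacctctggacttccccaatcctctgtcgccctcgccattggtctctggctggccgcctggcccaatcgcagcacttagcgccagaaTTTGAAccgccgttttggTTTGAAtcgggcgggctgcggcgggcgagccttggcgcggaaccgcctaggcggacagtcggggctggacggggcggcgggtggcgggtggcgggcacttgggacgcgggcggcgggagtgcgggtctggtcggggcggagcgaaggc
Cenpe, chr3:135212313-135212612, plus strand: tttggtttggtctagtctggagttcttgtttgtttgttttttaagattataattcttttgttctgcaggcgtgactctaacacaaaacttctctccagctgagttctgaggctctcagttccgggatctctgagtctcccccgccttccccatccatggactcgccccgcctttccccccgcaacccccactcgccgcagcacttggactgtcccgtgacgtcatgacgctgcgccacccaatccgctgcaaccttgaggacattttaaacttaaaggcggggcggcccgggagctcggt
Top2a and Mki67 hold 2 matches each, Cenpf 1 and Cenpe 0 in this window. Of 28 promoters of the list, 20 hold the letters, against 17.9% of all 32851 promoters and 12.2% of those of tested genes. The list was assembled from known mitotic genes, so this share describes the list and not the genes that changed.

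Mki67, the proliferation antigen Ki-67, stood at 19.1, 24.9 and 25.9 FPKM in KO anti-PD-1 and at 53.1, 56.5 and 62.3 FPKM in WT PBS, a difference of -1.27 ± 0.13 (limma adjusted p = 5.61e-05). Top2a, the DNA topoisomerase of dividing cells, stood at 35.98, 41.59 and 41.35 FPKM in KO anti-PD-1 and at 69.79, 75.85 and 80.94 FPKM in WT PBS, a difference of -0.91 ± 0.09 (limma adjusted p = 3.82e-05). The kinetochore genes Cenpf and Cenpe fell by 1.20 ± 0.12 (limma adjusted p = 5.58e-05) and by 1.02 ± 0.12 (limma adjusted p = 0.000119). All 3 KO anti-PD-1 libraries lay below all 3 WT PBS libraries in each, and replicate 1 was the lowest. In the adjusted fit the falls of Mki67, Top2a, Cenpf and Cenpe were 0.58, 0.47, 0.40 and 0.35, all still called.

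Of 33 genes of DNA replication and the E2F programme, 8 were lower and 2 higher (2 lower and 1 higher in the adjusted fit), with a median of -0.06, equal to that of all genes, and a share of lower calls near the 27.3% of all genes. The balance turned with scaling, to 4 lower and 5 higher with median-ratio scaling, where 2994 of all genes were lower and 2638 higher. It was 15 lower and 1 higher with protein-coding genes rescaled, where 4443 of all genes were lower and 749 higher. The lower calls were 4 without KO anti-PD-1 replicate 1, 5 without replicate 3 and 4 without WT PBS replicate 2. Gins2, part of the replicative helicase, rose to 5.101, 4.2 and 4.858 FPKM in KO anti-PD-1, against 2.773, 2.913 and 3.672 FPKM in WT PBS (0.48 ± 0.11, limma adjusted p = 0.0071), and Mcm4, another helicase subunit, fell by 0.40 ± 0.09 (limma adjusted p = 0.00602; 0.0529 in the adjusted fit).

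Genes of DNA damage signalling and repair, the pathway of Chek2, were lower but have long transcripts. Of 35 tested, 20 were called lower and 0 higher, with a median of -0.40, and in the adjusted fit 9 were lower with a median of -0.15. Over all tested genes 27.3% were lower as deposited and 15.6% in the adjusted fit. There were 18 lower calls without KO anti-PD-1 replicate 1. The median transcript of the list was 4571 bases long. Atm, the kinase that activates CHK2, stood at 1.21, 1.40 and 1.78 FPKM in KO anti-PD-1 and at 9.02, 9.33 and 8.42 FPKM in WT PBS, a difference of -2.02 ± 0.14 (limma adjusted p = 9.36e-06). In KO PBS and WT anti-PD-1 it averaged 8.82 and 9.63 FPKM, so the KO anti-PD-1 libraries alone were low. Atm was still called in the adjusted fit at -1.25 (limma adjusted p = 4.23e-05). Mdc1, which holds ATM at breaks, fell by 0.86 ± 0.10 (limma adjusted p = 0.000143; -0.42 and called in the adjusted fit), while Prkdc, the kinase of end joining, fell by 0.96 ± 0.13 (limma adjusted p = 0.000211) but was at -0.12 in the adjusted fit (limma adjusted p = 0.327).

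Counts among p53 targets were near those of all genes in the lower direction. Of 26 tested, 6 were higher and 7 lower, with a median of -0.02, where 15.6% of all tested genes were higher and 27.3% lower. The adjusted fit called 2 higher and 3 lower (11.2% and 15.6% of all genes), and without KO anti-PD-1 replicate 1 it was 4 and 5. With protein-coding genes rescaled it was 2 and 10, where 749 of all genes were higher and 4443 lower. Without WT PBS replicate 3 it was 3 higher and 4 lower. Cdkn1a, the cell cycle inhibitor p21, stood at 80.8, 73.8 and 63.7 FPKM in KO anti-PD-1 and at 48.8, 43.9 and 42.4 FPKM in WT PBS (0.68 ± 0.13, limma adjusted p = 0.00218), and was not called in the adjusted fit (limma adjusted p = 0.0644). Phlda3, a repressor of AKT, stood at 69.6, 60.4 and 54.3 FPKM in KO anti-PD-1 and at 38.6, 35.1 and 34.7 FPKM in WT PBS (0.74 ± 0.12, limma adjusted p = 0.000748), and was called there too (limma adjusted p = 0.00573). KO PBS tumours averaged 67.1 FPKM of Cdkn1a and 48.9 FPKM of Phlda3, and WT anti-PD-1 tumours 43.1 and 37.0 FPKM.

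**Figure D4:**
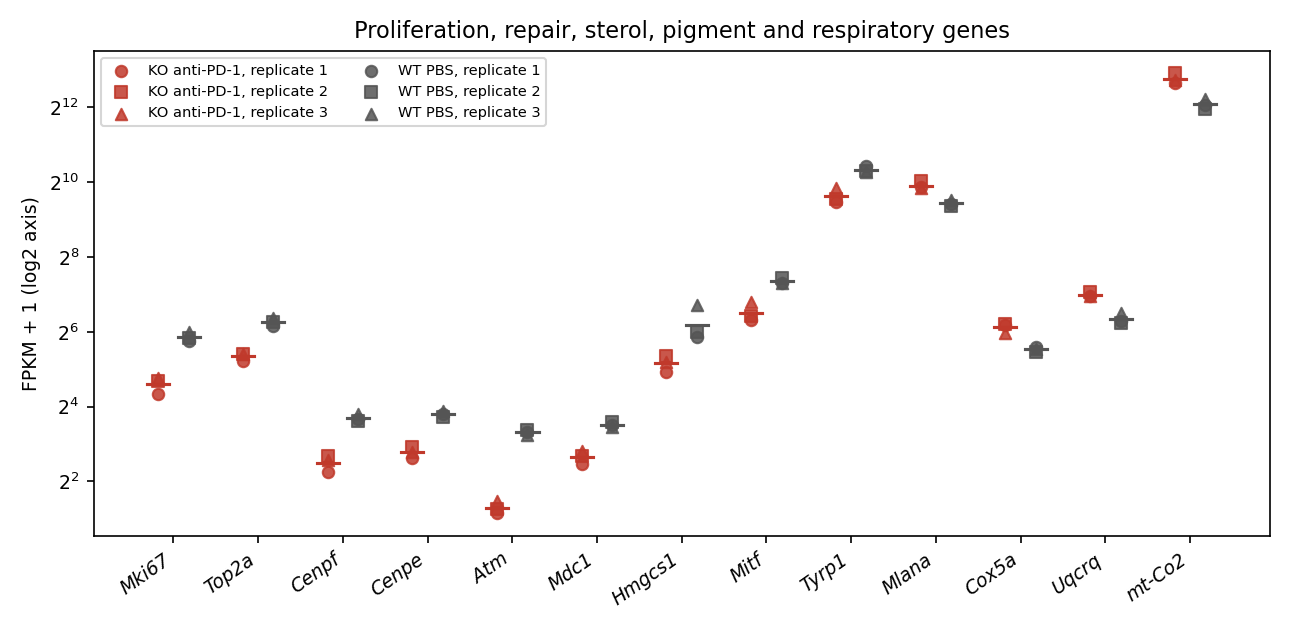
FPKM + 1 on a log2 axis for 13 genes of proliferation, DNA repair, sterol synthesis, pigment and respiration in the 3 KO anti-PD-1 and 3 WT PBS libraries, with bars at the means of the log2 values. Mki67 lies at 19.1 to 25.9 FPKM in KO anti-PD-1 and 53.1 to 62.3 FPKM in WT PBS, and Mlana, Cox5a, Uqcrq and mt-Co2 are higher in KO anti-PD-1, a difference that was not called for Mlana after quantile normalization.

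Sterol synthesis genes were lower. Of 21 genes of cholesterol synthesis and uptake, 11 fell and 1 rose, with a median of -0.46, and the adjusted fit called 7 lower and 0 higher (median -0.34). Over all tested genes 27.3% fell as deposited and 15.6% in the adjusted fit. Leaving out KO anti-PD-1 replicate 1 gave 8 lower and 0 higher. Hmgcs1, a synthase early in the pathway, stood at 29.4, 39.5 and 35.9 FPKM in KO anti-PD-1 and at 57.5, 62.4 and 104 FPKM in WT PBS (-1.03 ± 0.21, limma adjusted p = 0.00265). It was called in the adjusted fit and without any 1 of the 6 libraries, and its groups did not overlap. The exception was Fdps, farnesyl diphosphate synthase, named after its values were seen, at 49.01, 52.07 and 50.14 FPKM in KO anti-PD-1 and 36.98, 37.11 and 48.12 FPKM in WT PBS. No gene of the list was higher once any KO anti-PD-1 library, or WT PBS replicate 1 or 2, was left out.

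Of 20 melanocyte and pigment genes 6 fell and 1 rose, with a median of -0.10, a share of falls near the 27.3% of all genes. The adjusted fit called 5 lower and 1 higher, and without KO anti-PD-1 replicate 1 it was 5 and 2. The count depended on scaling, with 10 lower and 0 higher after quantile normalization and 11 lower and 1 higher with protein-coding genes rescaled. Over all genes quantile normalization gave 2904 lower and 2134 higher, and the rescaling 4443 lower and 749 higher. Tyrp1, an enzyme of eumelanin synthesis, stood at 702.6, 750.6 and 922.1 FPKM in KO anti-PD-1 and at 1376, 1259 and 1223 FPKM in WT PBS (-0.71 ± 0.13, limma adjusted p = 0.00193; -0.71 and called in the adjusted fit). Mitf, the master regulator of the lineage, stood at 78.0, 85.3 and 111 FPKM in KO anti-PD-1 and at 156, 173 and 157 FPKM in WT PBS (-0.83 ± 0.16, limma adjusted p = 0.00187; -0.43 and called in the adjusted fit). Rab27a, which tethers pigment granules for transport, fell by 0.84 ± 0.16 (limma adjusted p = 0.00214). Mlana, the melanosome antigen MART-1, was the gene that rose, at 928.5, 1038 and 918.8 FPKM in KO anti-PD-1 and 677.4, 653.5 and 739.9 FPKM in WT PBS (0.48 ± 0.10, limma adjusted p = 0.00316), but it was not called after quantile normalization.

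Respiratory chain genes were higher in KO anti-PD-1, most of them short. Of 34 nuclear genes of oxidative phosphorylation 26 rose and 1, Ndufs1, fell, with a median of 0.40 and a median transcript of 1591 bases. The adjusted fit called 12 higher and 2 lower (median 0.22). Quantile normalization gave 6 higher and 3 lower, where it called 2134 of all genes higher and 2904 lower. Over all tested genes 15.6% were higher as deposited and 11.2% in the adjusted fit. Leaving out KO anti-PD-1 replicate 1 gave 20 higher and 0 lower. Cox5a, a subunit of cytochrome oxidase, stood at 72.1, 73.2 and 61.5 FPKM in KO anti-PD-1 and at 47.5, 43.3 and 45.9 FPKM in WT PBS (0.58 ± 0.09, limma adjusted p = 0.00066; 0.58 and called in the adjusted fit). Of the 13 protein genes of the mitochondrial genome 6 were higher and 1 lower, but 1 higher and 6 lower after quantile normalization, and the count was the same in the adjusted fit and without KO anti-PD-1 replicate 1. mt-Co2 stood at 6374, 7758 and 6829 FPKM in KO anti-PD-1 and at 4281, 3936 and 4762 FPKM in WT PBS (0.69 ± 0.10, limma adjusted p = 0.000507).

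Of 35 genes of hypoxia and glycolysis 10 were higher and 2 lower, with a median of 0.30, where 15.6% of all tested genes were higher and 27.3% lower. The adjusted fit called 4 higher and 0 lower, a share near the 11.2% of all genes, and without KO anti-PD-1 replicate 1 it was 7 and 1. Without WT PBS replicate 2 it was 6 higher and 2 lower. Tpi1, triosephosphate isomerase, stood at 1032, 988.3 and 959 FPKM in KO anti-PD-1 and at 696.5, 548.8 and 625.7 FPKM in WT PBS (0.68 ± 0.11, limma adjusted p = 0.000948; called in the adjusted fit). KO PBS tumours averaged 834 FPKM and WT anti-PD-1 tumours 639 FPKM of Tpi1. Hif1a, the oxygen-regulated transcription factor subunit, fell to 33.4, 40.7 and 33.6 FPKM in KO anti-PD-1, against 51.5, 50.8 and 52.3 FPKM in WT PBS (limma adjusted p = 0.0007), but was at -0.11 in the adjusted fit (limma adjusted p = 0.337).

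**Figure D5:**
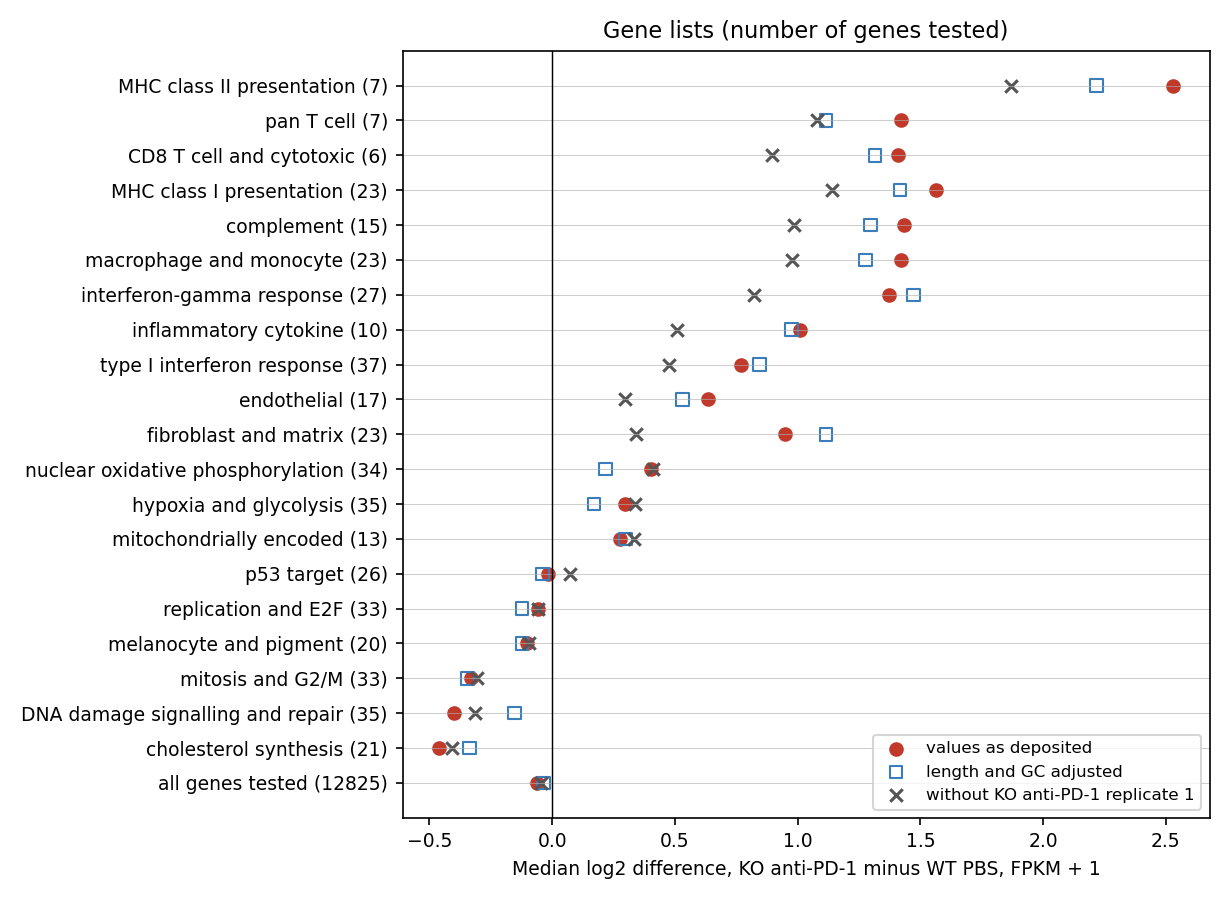
Median log2 difference (KO anti-PD-1 minus WT PBS, FPKM + 1) of 20 gene lists and of all 12825 tested genes, with values as deposited (filled circles), after adjustment for transcript length and GC content (open squares) and without KO anti-PD-1 replicate 1 (crosses). Class II genes have the highest median of the lists drawn, 2.53 as deposited and 1.87 without that library, and mitosis genes keep their median at -0.33 and -0.34 in the first pair.

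The largest rises were taken among called genes with an approved-style symbol whose groups did not overlap, leaving out muscle and haemoglobin genes, immunoglobulin segments and unnamed gene models. They were Ly6a, Cd74, Mcmdc2, Emp1, H2-Aa, H2-Ab1, H2-Eb1, Nkg7, Plac8, Gzmb, Ifi27l2a and Clec3b. Ly6a, the stem cell antigen Sca-1 and an interferon-induced surface protein, stood at 163, 31.9 and 47.1 FPKM in KO anti-PD-1 and at 5.86, 13.8 and 3.58 FPKM in WT PBS (3.04 ± 0.90, limma adjusted p = 0.0193; 0.0785 without KO anti-PD-1 replicate 1, and also lost without WT PBS replicate 1 or 3). Emp1, an epithelial membrane protein, stood at 39.0, 28.5 and 20.4 FPKM in KO anti-PD-1 and at 3.75, 3.75 and 3.53 FPKM in WT PBS (2.65 ± 0.64, limma adjusted p = 0.00748), and stayed called without any 1 of the 6 libraries and in the adjusted fit. Mcmdc2, related to the MCM helicases and known from meiosis, stood at 4.73, 10.3 and 6.54 FPKM in KO anti-PD-1 and at 0.105, 0.291 and 0.199 FPKM in WT PBS (2.72 ± 0.20, limma adjusted p = 1.24e-05). It passed the filter through the KO anti-PD-1 libraries alone, so it had to differ, and it was not tested once any of these was left out; the same holds for Nkg7, Gzmb and Clec3b. It was as high in KO PBS tumours, at a mean of 5.39 FPKM, and low in WT anti-PD-1 tumours, at 0.146 FPKM.

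The largest falls were Qser1, Zbed6, Atp7a, Itgav, Fermt1, Rc3h2, Ankfn1, Uprt, Klhl11, Met, Utrn and Nedd4, and all 12 stayed called in the adjusted fit. Qser1, Fermt1 and Rc3h2 passed the filter through the WT PBS libraries alone, so they had to differ and their calls add no support. These genes were not tested once any WT PBS library was left out. Met, the receptor of hepatocyte growth factor, stood at 7.918, 7.037 and 12.01 FPKM in KO anti-PD-1 and at 48.23, 38.35 and 55.75 FPKM in WT PBS (-2.29 ± 0.19, limma adjusted p = 2.27e-05). Atp7a, a copper transporter that supplies tyrosinase, stood at 1.13, 1.42 and 1.99 FPKM in KO anti-PD-1 and at 16.3, 17.0 and 20.6 FPKM in WT PBS (-2.92 ± 0.14, limma adjusted p = 1e-06). Itgav, the integrin alpha-V chain, stood at 0.979, 0.996 and 1.32 FPKM in KO anti-PD-1 and at 8.22, 9.09 and 27.7 FPKM in WT PBS (-2.73 ± 0.45, limma adjusted p = 0.000868). Met averaged 42.8 FPKM in KO PBS and 44.6 FPKM in WT anti-PD-1, Atp7a 17.5 and 17.8 FPKM, and Itgav 18.9 and 23.03 FPKM.

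Some gene models were present or absent in KO anti-PD-1 alone. Qser1 was listed at 0 in all 3 KO anti-PD-1 libraries and at 9.661 to 15.96 FPKM in the 21 other libraries of the series, MC38 included. The model AC157548.1 stood at 9.93, 10.3 and 9.35 FPKM in KO anti-PD-1 and the model ENSMUSG00000118575 at 5.37, 6.77 and 6.56 FPKM, and both were listed at 0 in all 21 others. No other group of 3 libraries had a gene model under 0.05 FPKM there and above 1 FPKM elsewhere, or the reverse. Zbed6 lies within Zc3h11a, so its value of 0.441, 0.6873 and 1.336 FPKM in KO anti-PD-1, against 22.22, 29.62 and 23.97 FPKM in WT PBS, is uncertain in how reads were assigned. Fermt1, the adhesion protein kindlin-1, was listed at 0 in all 3 KO anti-PD-1 libraries and at 4.39, 7.20 and 2.86 FPKM in WT PBS, and averaged 0.0129 FPKM in KO PBS against 4.89 FPKM in WT anti-PD-1.

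The single-factor differences were much narrower. KO PBS minus WT PBS gave 56 called genes (0.437%), 32 higher (0.25%) and 24 lower (0.187%). WT anti-PD-1 minus WT PBS gave 0 with limma (0%), with 246 genes at an unadjusted p under 0.05. In contrast KO anti-PD-1 minus KO PBS gave 5749 (44.8%; 19.8% higher, 25.1% lower) and KO anti-PD-1 minus WT anti-PD-1 gave 5390 (42%; 15.9% higher, 26.1% lower). These differences share libraries with the net difference, so they are set side by side and not correlated. For the class II list the median was 2.53 for the net difference, -0.61 for KO PBS minus WT PBS and 0.48 for WT anti-PD-1 minus WT PBS. For the mitosis list these medians were -0.33, -0.11 and -0.01.

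The departure from the sum of the single factors was tested as an interaction of genotype and treatment. It was called in 3131 genes (24.4%), 1237 higher (9.65%) and 1894 lower (14.8%), and in 1086 in the adjusted fit (8.47%; 2.79% higher, 5.68% lower). Of the mitosis list 11 genes had a lower and 2 a higher interaction, of the macrophage list 4 had a higher one, and of the 7 class II genes none was called. Arg1, an arginase of myeloid cells, had an interaction of 3.96 ± 1.02 (limma adjusted p = 0.0185), with means of 31.6 ± 28.1 FPKM in KO anti-PD-1, 1.76 ± 0.828 in KO PBS, 4.05 ± 4.195 in WT anti-PD-1 and 6.49 ± 0.898 in WT PBS (SD, n = 3 each).

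The same net comparison in MC38 tumours differed from that in B16. A fit of all 24 libraries called 2454 of 14839 genes (16.5%) between KO anti-PD-1 and WT PBS in MC38, 1222 higher (8.24%) and 1232 lower (8.3%). The difference between the lines in the net effect was called in 5415 genes (36.5%), 2003 higher in B16 (13.5%) and 3412 lower (23%), and in 4206 in the adjusted fit (28.4%; 12.9% higher, 15.4% lower). The difference followed transcript length in B16 with a rho of -0.63 and in MC38 with 0.03. Emp1 averaged 29.3 ± 9.30 FPKM in B16 KO anti-PD-1 and 3.68 ± 0.126 FPKM in B16 WT PBS, and 96.1 ± 58.5 FPKM in MC38 KO anti-PD-1 and 175 ± 15.7 FPKM in MC38 WT PBS (SD, n = 3 each), and the net effect differed by 3.78 ± 0.93 (limma adjusted p = 0.00376). Because the KO anti-PD-1 libraries of B16 differ from all others in summed FPKM and in the trend over transcript length, their condition and how those 3 libraries were made cannot be told apart.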

How the data were processed

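RNA sequencing of tumour tissue gave 1 deposited file of FPKM values per library, for the same 55335 Ensembl gene models in each. Total RNA was taken with Trizol and libraries were made by standard Illumina methods, per the labels' protocols; strand, read length and RNA selection are not given in the sources used here. FastQC, Cuffnorm, DESeq, STAR 2.5 and the build mm10 stand, with no role given, in the submitters' processing notes. The deposited values were read as FPKM from their uneven sums and from the steps between low values of genes with a single transcript. Depth was estimated from those steps, which give a relative depth and not counts, so no count-based test was run. Without strand, a gene and its antisense partner cannot be told apart.

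Limma 3.58.1 under R 4.3.3 fitted log2(FPKM + 1) of the 12 B16 libraries, 1 mean for each group, with 8 residual degrees of freedom, a mean-variance trend and Benjamini-Hochberg adjustment over 12825 genes. GENCODE M21 gave positions, lengths and GC content (55154 IDs matched, 181 did not) and promoters from RefSeq, GRCm38.p6. The adjusted fit removed from each library a spline trend with 4 degrees of freedom per term over log2 length and GC content of the longest transcript, and was chosen after the data were seen. On simulated data for the net comparison with 12825 genes, a 1.5-fold change was found in 47.8% of 67 genes. A 2-fold change was found in 77.6% of 67 genes and a 4-fold change in 92.4% of 66, and 8 of 153 calls were false. Whether these shares hold for the KO anti-PD-1 libraries, whose values follow transcript length, was not tested.

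Named genes were Chek2, a panel of 8 immune genes, the 12 largest rises and falls without overlap, up to 4 members per list by adjusted p, and the 4 largest interactions and line differences in each direction. The members, the 39 gene lists and the motifs were chosen with earlier results of these data known. No 2 libraries of the 276 pairs shared more than 0.0243% of their nonzero values. Alternatives were other pseudocounts (0.1 and 0.5), filters, scalings, weights, sets of libraries in the fit and each library left out. Python 3.11.15 was used for tables and figures.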

Additional observations from a re-analysis of the deposited data

Results flagged for a closer look

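The results here differed between groups by a test of the difference itself. The genotype by treatment interaction in B16 was called in 3131 genes, and the difference of the net effect between B16 and MC38 in 5415. Among the largest positive interactions were Cfd, a complement protease, at 4.64 (limma adjusted p = 0.0373), Hp, haptoglobin, at 3.99 (limma adjusted p = 0.0172), Arg1 at 3.96 and Dpt, a matrix protein, at 3.69 (limma adjusted p = 0.0496). Cfd averaged 24.9 ± 19.9 FPKM in KO anti-PD-1, 0.181 ± 0.313 in KO PBS, 6.11 ± 8.96 in WT anti-PD-1 and 6.82 ± 6.08 in WT PBS (SD, n = 3 each), so its spread is wide. The largest negative interactions were Itgav at -3.88, Qser1 at -3.80, Zbed6 at -3.50 and Zfp422 at -2.99 (limma adjusted p = 0.0446). In the adjusted fit Cfd, Dpt and Zfp422 were no longer called (limma adjusted p = 0.0899, 0.0995 and 0.0795).

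Between the lines, the net effect was higher in B16 by 7.74 for mt-Ts2, a mitochondrial tRNA gene, by 4.21 for Arg1, by 3.85 for H19, an imprinted non-coding RNA, and by 3.78 for Emp1. mt-Ts2 averaged 61.8 ± 69.6 FPKM in B16 KO anti-PD-1 and 0.278 ± 0.0247 FPKM in B16 WT PBS, and 0.256 ± 0.0338 FPKM in MC38 KO anti-PD-1 and 47.9 ± 57.2 FPKM in MC38 WT PBS (SD, n = 3 each), with most of its difference from groups of very unequal libraries. H19 averaged 9.85 ± 13.9 FPKM in B16 KO anti-PD-1 and 0.783 ± 0.681 FPKM in B16 WT PBS. In MC38 it was lower in KO anti-PD-1, at 78.9 ± 9.73 FPKM against 341 ± 64.6 FPKM in WT PBS. Arg1 was likewise lower in MC38 KO anti-PD-1, at 11.0 ± 2.62 FPKM against 75.1 ± 32.9 FPKM in MC38 WT PBS. In B16 it averaged 31.6 ± 28.1 and 6.49 ± 0.898 FPKM in these groups. The net effect was lower in B16 by log2 values of -4.32 for Zbed6, -3.93 for Qser1, -3.23 for Atp7a and -2.94 for Itgav.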

How the results depend on the processing

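No paired analysis was possible because the sample titles give no replicate number that the groups share. Over the 12 fits that leave out 1 library each, the net comparison called 4062 to 5596 genes, the interaction 2100 to 3253 genes, and Chek2 lay between -0.25 and -0.17 (limma adjusted p = 0.047 to 0.186); the difference between lines called 4618 to 5428. With length and GC adjusted the net count was 3438, and 2138 with KO anti-PD-1 replicate 1 also left out. The interaction count was 1086 with length and GC adjusted, 1405 with length alone and 727 with both and replicate 1 left out, and the count between lines was then 3525. Chek2 was called at -0.40 with protein-coding genes rescaled, -0.23 with array weights, -0.28 with length and GC adjusted and -0.38 with length adjusted. The sign turned for 4 genes named by the rule. Lgals7 ran from -0.15 to 0.19 with 1 library left out, and was -0.13 with protein-coding genes rescaled, -0.30 with length and GC adjusted, -0.18 with length adjusted and -0.19 with KO anti-PD-1 replicate 1 also left out. Sdc1 was -0.038 with protein-coding genes rescaled and -0.0086 with length and GC adjusted. Cxcl5 ran from -0.077 to 1.24 with 1 library left out and was -0.054 with length and GC adjusted on replicates 2 and 3. Bmpr2, called lower as deposited (limma adjusted p = 0.000109), was 0.032 with length and GC adjusted and 0.034 with replicate 1 also left out. The causes were not tested. Depth limits genes under 1 FPKM, most of the T cell genes among them.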

Other observations

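Further gene groups of the KO anti-PD-1 tumours moved in part. Of 15 matrix protease genes 6 rose and 3 fell, 5 and 1 in the adjusted fit, and 3 and 3 without KO anti-PD-1 replicate 1. Over all tested genes 15.6% rose and 27.3% fell as deposited, and 11.2% and 15.6% in the adjusted fit. Plau, the urokinase plasminogen activator, stood at 17.9, 13.9 and 13.4 FPKM in KO anti-PD-1 and at 6.35, 7.29 and 6.06 FPKM in WT PBS (1.08 ± 0.17, limma adjusted p = 0.000654). Adam8, a membrane protease of leukocytes and tumour cells, stood at 18.7, 7.73 and 10.9 FPKM in KO anti-PD-1 and at 3.69, 4.05 and 1.74 FPKM in WT PBS (1.66 ± 0.33, limma adjusted p = 0.00241). Both were called in the adjusted fit and without any 1 of the 6 libraries compared. Of 19 genes of TGF-beta and BMP signalling 5 rose and 4 fell, a share near the 42.9% of all genes called. It was 3 and 1 in the adjusted fit, and 2 and 4 when KO anti-PD-1 replicate 1 was dropped. Bmpr2, with the smallest adjusted p of this list, fell as deposited (limma adjusted p = 0.000109) but was at 0.032 in the adjusted fit and not called. Smad4, the common mediator of these pathways, stood at 12.6, 13.4 and 13.9 FPKM in KO anti-PD-1 and at 18.2, 17.5 and 19.4 FPKM in WT PBS (-0.44 ± 0.08, limma adjusted p = 0.00203; -0.43 and called in the adjusted fit).

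Of 25 tested genes of the unfolded protein and stress responses 7 fell and 0 rose, a share of falls near the 27.3% of all genes, and 3 fell in the adjusted fit, and likewise 3 when KO anti-PD-1 replicate 1 or WT PBS replicate 2 was dropped. Chac1, a glutathione-degrading target of ATF4, stood at 6.904, 10.98 and 11.99 FPKM in KO anti-PD-1 and at 21.91, 15.48 and 16.7 FPKM in WT PBS (-0.81 ± 0.22, limma adjusted p = 0.0132; 0.0507 without KO anti-PD-1 replicate 1, and also lost without WT PBS replicate 1). Xbp1, a transcription factor of the unfolded protein response, stood at 10.4, 11.3 and 13.7 FPKM in KO anti-PD-1 and at 17.0, 15.8 and 14.6 FPKM in WT PBS (-0.40 ± 0.10, limma adjusted p = 0.0109), called in the adjusted fit at -0.65. Of 17 endothelial genes 7 rose and 1 fell (3 and 0 in the adjusted fit), and of 23 fibroblast and matrix genes 4 rose and 0 fell (1 and 0), a share of rises near the 15.6% of all genes. Without KO anti-PD-1 replicate 1 the higher counts were 2 and 1, and without WT PBS replicate 3 they were also 2 and 1. The mast cell proteases Cma1 and Mcpt4 stood at 1.17 to 4.70 FPKM in KO anti-PD-1 and 0 to 0.575 FPKM in WT PBS. Both passed the filter through the KO anti-PD-1 libraries alone, so they had to differ, and were not tested once any of these was left out.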
